A study of Mus musculus with 6 samples.

Results

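Small leucine-rich proteoglycans (SLRPs) were examined in pulp tissue of mice with and without the collagenase gene Mmp13. The 10 members, Dcn, Bgn, Aspn, Fmod, Lum, Kera, Prelp, Omd, Ogn and Epyc, were taken by gene symbol, and each matched 1 of the 53342 genes in the deposited expression table. RNA sequencing was carried out on 3 WT samples, numbered 2, 4 and 5, and 3 Mmp13-/- samples, numbered 1, 2 and 6, described as independent biological samples. Both groups were C57BL/6 mice aged 3 months, and the methods describe male animals. The Mmp13-/- mice were global, homozygous knockouts, so loss was not restricted to the pulp. The labels describe pulp from molars and a column-based RNA kit, whereas the methods describe incisors and TRIzol, and the tooth type was not resolved here.

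SLRPs are secreted matrix proteins built on leucine-rich repeats, and most carry chondroitin, dermatan or keratan sulfate chains. They bind collagen fibrils and set fibril diameter and spacing, and several also bind growth factors of the TGF-beta and BMP families. In teeth they are found in pulp, predentin, dentin and the periodontal ligament. MMP13 is a collagenase that cleaves fibrillar collagens, and fibromodulin and biglycan are among the SLRPs that it is known to cleave. Transcript levels, which are what was measured, say nothing of cleavage of the proteins.

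In Mmp13-/- pulp 6 SLRP transcripts were higher by over 2-fold, 3 were lower, and Epyc was too scarce to be tested. The changes ran from 14.0-fold higher for Aspn to 0.457 times the WT level for Fmod. Levels are given as CPM, the count of a gene relative to the library total scaled with trimmed-mean (TMM) factors. A gene passed the test at an adjusted p under 0.05 in the edgeR quasi-likelihood test over 24534 genes. Of all genes tested, 20.4% passed as higher by over 2-fold and 9.68% as lower by over 2-fold. Among the 9 members tested, 6 passed as higher (Dcn, Lum, Kera, Ogn, Omd and Aspn) and 1, Fmod, as lower by over 2-fold. At any fold, 27.3% of all genes passed as higher and 24.3% as lower, against 6 and 3 of the 9 members, and Prelp and Bgn joined Fmod among those that fell. The levels of the 3 WT and 3 Mmp13-/- samples did not overlap for any of the 9 tested members, 6 of them higher and 3 lower in Mmp13-/-. Epyc, which was not tested, also did not overlap, at 0 counts in WT and 8.73 to 10.2 estimated counts in Mmp13-/-, near the background of reads. Over all tested genes, 60.9% were separated in this way, 31.8% higher and 29.1% lower. In whole tissue, fewer cells of a type and less RNA per cell cannot be told apart.

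**Figure D1:**
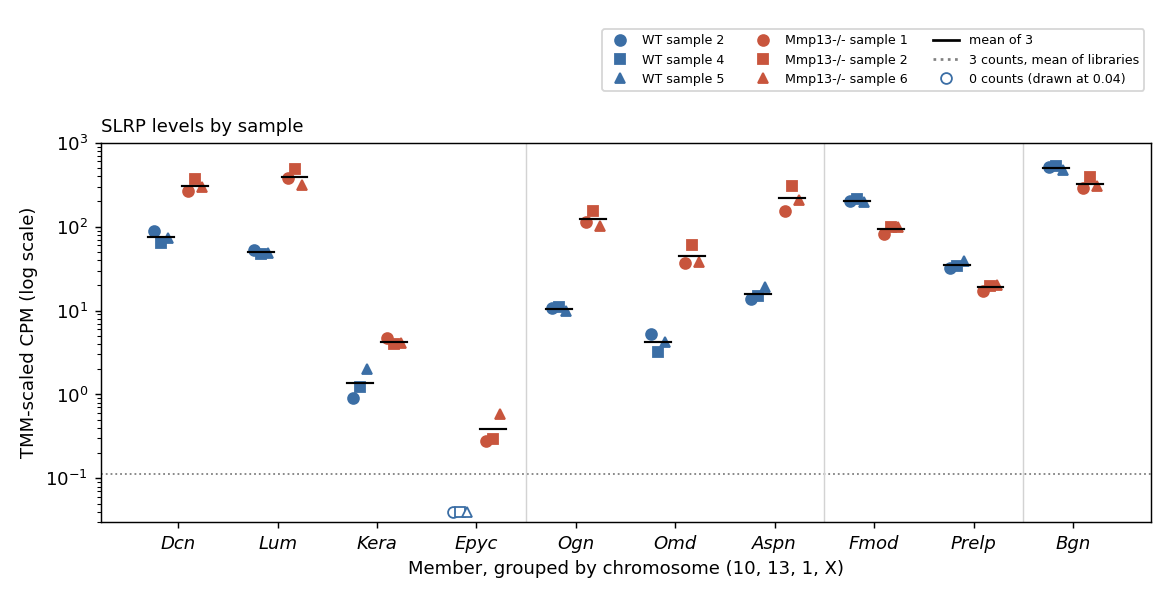
Level of each SLRP in every sample, in TMM-scaled CPM on a log axis. Blue symbols are the 3 WT samples, red symbols the 3 Mmp13-/- samples, black lines the group means, open symbols samples with 0 counts, and the dotted line the level of 3 counts averaged over the libraries. The red symbols lie above the blue ones for 7 genes, among them Epyc near the background of reads, and below them for Fmod, Prelp and Bgn.

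Mmp13 itself (chr9:7272514-7283331) was at 36.9, 39.2 and 30.2 CPM in WT samples 2, 4 and 5 and at 0.323, 1.10 and 2.34 CPM in Mmp13-/- samples 1, 2 and 6. The log2 fold change was −4.96 (SE 0.46, edgeR adjusted p = 7.67e-05). Libraries held 28442936 to 29980236 estimated counts in WT and 21561420 to 26547121 in Mmp13-/-. Mmp13-/- sample 6 stood apart, with 30.5% of its counts on 1 gene, Gm10800. That gene also had the most counts in Mmp13-/- sample 2, at 6.88%, whereas in the other libraries Ttn did, at 4.48 to 5.95%. Reads on 1454 odorant and vomeronasal receptor genes, which are known mainly from the nose, summed to 18.2 to 21.5 CPM in WT and to 257, 316 and 1495 CPM in Mmp13-/- samples 1, 2 and 6. Without sample 6, all 9 tested members still passed in the same direction, with log2 fold changes from −1.17 for Fmod to 3.85 for Aspn.

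Markers of several tissues differed between the groups along with the SLRPs. Dspp, the main matrix gene of odontoblasts, was present in all samples, at 523.8 to 1646 CPM in WT and 1571 to 2422 CPM in Mmp13-/-. The groups overlapped, but it passed as higher, with a log2 fold change of 1.13 (edgeR adjusted p = 0.037), or 1.26 with the GC correction (0.0327). The summed level of 6 skeletal muscle genes was 25430 to 33630 CPM in WT and 4318 to 10940 CPM in Mmp13-/-, and 5 of the 6 fell. Summed over 5 tendon and periodontal ligament genes, the level was 639.5 to 856 CPM in WT and 3107 to 4531 CPM in Mmp13-/-. That list was carried by Postn (periostin), which rose by 2.71 (log2), and Tnmd rose by 2.15, whereas Scx fell by 1.47. With the GC correction Postn was at 1.22, Tnmd at 1.75 and Scx at −0.36, which did not pass (edgeR adjusted p = 0.148). The 8 bone marrow and blood genes all rose, from a sum of 75.9 to 152 CPM to a sum of 259 to 594 CPM. Sums for pulp mesenchyme were 1050 to 1153 CPM in WT and 749 to 983 CPM in Mmp13-/-. Cartilage genes summed to 81.8 to 111 and 38.3 to 49.0 CPM, with Matn1 at 0 in WT samples 2 and 5. Ranges of the groups overlapped for odontoblast (1627 to 3127 and 2575 to 3756 CPM), enamel epithelium (4539 to 5860 and 4425 to 5760 CPM), bone (563 to 642 and 559 to 793 CPM), endothelium (115 to 131 and 110 to 147 CPM) and Schwann cell genes (47.6 to 216 and 51.1 to 66.2 CPM). Within these sums single genes were apart. In bone Mepe rose by 2.35 and Ibsp by 1.56 (log2), or by 2.61 and 1.38 with the GC correction. Alpl and Sp7 were lower there, with log2 fold changes of −0.679 and −0.745 (edgeR adjusted p = 0.0134 and 0.00797). With the GC correction 0 of the 6 bone genes passed as lower. In odontoblast Phex rose by 1.68 and Nes fell by 1.21, and in enamel epithelium Krt14 fell by 1.33 and Krt5 fell by 1.31. Under the GC correction Phex was at 0.899 (edgeR adjusted p = 0.0154). Nes at −0.469 (edgeR adjusted p = 0.0691), Krt14 at −0.424 (0.288) and Krt5 at −0.434 (0.196) did not pass under this correction. The part of these tissues in the SLRP values was not tested.

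Of the members, 9 sit in 3 chromosomal groups, and Bgn lies alone on the X chromosome (GRCm38 throughout). Dcn, Lum, Kera and Epyc follow each other on the plus strand of chromosome 10 within 202.8 kb, at chr10:97479609-97518143, chr10:97565128-97572703, chr10:97606879-97613692 and chr10:97644068-97682454. Aspn, Omd and Ogn lie within 80.1 kb on the plus strand of chromosome 13, at chr13:49544443-49567565, chr13:49582462-49592822 and chr13:49608046-49624501, inside Cenpp on the opposite strand. Prelp (chr1:133910304-133921414, minus strand) and Fmod (chr1:134037254-134048277, plus strand) span 138.0 kb. Among the members, direction followed these groups: the 3 tested members on chromosome 10 and all 3 on chromosome 13 rose, and both members on chromosome 1 fell, as did Bgn (chrX:73483602-73495933). Optc (chr1:133897199-133907999), a family gene beside Prelp, went the other way and rose by 2.85 (log2) from a level near the floor of 3 counts. Ecm2 (chr13:49504810-49532789), a family gene beside Aspn, rose by 0.95, in the direction of the chromosome 13 members.

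The 250 bases before the start of 3 genes that rose together and of the 3 that fell are shown because the direction of change followed position among the members. They are RefSeq sequences of GRCm38.p6, written 5′ to 3′ on the strand of the gene. Capitals mark matches on either strand to the core of the TATA box (TATAAA, held by 12.4% of 32851 such sequences), the CCAAT box (CCAAT, held by 33.8%), the GC box (GGGCGG, held by 32.7%) or the AP-1 site (TGANTCA, held by 6.75%). The genes that rose are Aspn (chr13:49544193-49544442), Omd (chr13:49582212-49582461) and Ogn (chr13:49607765-49608014).
Aspn: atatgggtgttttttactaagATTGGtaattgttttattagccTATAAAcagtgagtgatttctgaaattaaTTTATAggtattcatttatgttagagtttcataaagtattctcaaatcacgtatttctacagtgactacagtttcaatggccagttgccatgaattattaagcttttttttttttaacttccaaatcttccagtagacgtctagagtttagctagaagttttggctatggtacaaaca
Omd: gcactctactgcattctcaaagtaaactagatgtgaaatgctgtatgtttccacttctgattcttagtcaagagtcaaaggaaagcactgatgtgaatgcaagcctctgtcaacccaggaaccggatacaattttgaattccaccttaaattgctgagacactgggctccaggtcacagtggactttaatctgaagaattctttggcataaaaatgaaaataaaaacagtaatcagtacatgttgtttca
Ogn: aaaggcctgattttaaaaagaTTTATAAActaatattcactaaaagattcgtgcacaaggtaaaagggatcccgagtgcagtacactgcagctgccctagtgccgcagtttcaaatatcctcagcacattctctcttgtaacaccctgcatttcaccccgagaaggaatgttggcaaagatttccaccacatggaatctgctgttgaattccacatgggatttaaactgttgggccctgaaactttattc
The genes that fell are Fmod (chr1:134037004-134037253), Prelp (chr1:133921402-133921651, minus strand) and Bgn (chrX:73483351-73483600).
Fmod: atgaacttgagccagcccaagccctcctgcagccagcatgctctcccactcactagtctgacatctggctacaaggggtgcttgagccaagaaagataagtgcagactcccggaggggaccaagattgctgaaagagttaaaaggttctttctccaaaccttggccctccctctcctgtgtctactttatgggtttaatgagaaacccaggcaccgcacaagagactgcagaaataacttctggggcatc
Prelp: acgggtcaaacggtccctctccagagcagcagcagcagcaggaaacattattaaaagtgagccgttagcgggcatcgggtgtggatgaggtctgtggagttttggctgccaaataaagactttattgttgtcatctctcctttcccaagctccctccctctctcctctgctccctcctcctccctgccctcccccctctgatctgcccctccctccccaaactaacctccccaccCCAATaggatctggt
Bgn: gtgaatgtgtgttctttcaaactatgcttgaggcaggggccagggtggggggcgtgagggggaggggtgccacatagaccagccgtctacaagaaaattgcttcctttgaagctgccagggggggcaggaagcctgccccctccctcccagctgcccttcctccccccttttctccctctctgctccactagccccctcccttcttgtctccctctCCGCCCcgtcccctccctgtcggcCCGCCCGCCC
The GC content of these sequences was 30.0% for Aspn, 38.4% for Omd and 42.0% for Ogn, against 51.2% for Fmod, 55.6% for Prelp and 64.4% for Bgn and a median of 52.4% over all 32851. Aspn held TATAAA beginning 207 bases before the start and on the opposite strand at 178, and CCAAT on the opposite strand at 229. Ogn held overlapping TATAAA matches at 229 and 227. Bgn held GGGCGG on the opposite strand at 34, 10 and 6, those at 10 and 6 overlapping, and Prelp held CCAAT at 15. No match was found in the windows of Omd and Fmod, and none of the 6 held the AP-1 motif. These are letter matches and not shown binding sites.

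Class I holds Dcn, Bgn and Aspn, of which decorin (Dcn) and biglycan (Bgn) carry chondroitin or dermatan sulfate and asporin (Aspn) does not. Dcn, the best known regulator of collagen fibril assembly in the family, was at 87.7, 64.7 and 74.2 CPM in WT samples 2, 4 and 5 and at 267, 366 and 295 CPM in Mmp13-/- samples 1, 2 and 6. Every Mmp13-/- sample was above every WT sample, with means of 75.5 ± 11.6 and 309.5 ± 51.0 CPM (SD, n = 3 each). This 4.1-fold rise was a log2 fold change of 2.03 (SE 0.19, edgeR adjusted p = 8.2e-05). Bgn, its closest relative, which also binds TLR2 and TLR4, was at 511, 533.5 and 475.7 CPM in WT and 293, 386 and 303 CPM in Mmp13-/-. It was lower in all 3 Mmp13-/- samples, with means of 507 ± 29.1 and 327 ± 51.1 CPM (SD, n = 3 each). Its log2 fold change of −0.63 (SE 0.18, edgeR adjusted p = 0.0163) was the smallest in size among the 9 tested members. It was −0.62 without Mmp13-/- sample 1 (edgeR adjusted p = 0.0634) and −0.63 without WT sample 4 (0.057), neither past the threshold. Nor were the values of −0.51 with total counts in place of TMM factors (edgeR adjusted p = 0.293) and −0.22 with a correction for transcript GC content (0.229). Aspn, known from the periodontal ligament and as an inhibitor of TGF-beta and BMP signals, was at 13.7, 15.1 and 19.1 CPM in WT and 153, 310 and 206 CPM in Mmp13-/-. The Mmp13-/- samples differed among themselves, but the lowest lay far above the highest WT sample. Means were 16.0 ± 2.76 and 223 ± 79.8 CPM (SD, n = 3 each), a log2 fold change of 3.80 (SE 0.28, edgeR adjusted p = 3.4e-05), the largest of the 9 tested members in this fit. Under a correction for transcript GC content it was 1.78, below Lum, Ogn and Omd.

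Class II holds Fmod, Lum, Kera, Prelp and Omd, several of which carry keratan sulfate, and its members moved in both directions. Fibromodulin (Fmod), which binds collagen and supports its cross-linking, was at 204, 216.5 and 194.5 CPM in WT and 82.2, 99.6 and 99.2 CPM in Mmp13-/-. All 3 Mmp13-/- samples were below the WT samples, with means of 205 ± 11.03 and 93.7 ± 9.91 CPM (SD, n = 3 each) and a log2 fold change of −1.13 (SE 0.15, edgeR adjusted p = 0.000334). The fall was under 2-fold with the GC correction (−0.52), with upper-quartile factors (−0.91) and after subtraction of background reads (−0.96). Lumican (Lum), which competes with fibromodulin for a site on collagen, was at 52.4, 47.5 and 48.2 CPM in WT and 378, 483.6 and 317 CPM in Mmp13-/-. WT samples lay close together and the lowest Mmp13-/- sample was well above them, with means of 49.4 ± 2.66 and 393 ± 84.2 CPM (SD, n = 3 each). The rise was 7.96-fold, a log2 fold change of 2.99 (SE 0.20, edgeR adjusted p = 2.1e-05).

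Keratocan (Kera), best known from the cornea, was a low transcript at 0.898, 1.24 and 2.01 CPM in WT and 4.69, 3.97 and 4.14 CPM in Mmp13-/-. The groups did not overlap, with means of 1.38 ± 0.569 and 4.26 ± 0.377 CPM (SD, n = 3 each), and the log2 fold change was 1.63 (SE 0.31, edgeR adjusted p = 0.00196). Its counts in Mmp13-/- samples 1, 2 and 6 were 43.1, 29.7 and 6.54 times those given by the rate of reads over receptor genes for its exon length. Prelp, whose basic N-terminal stretch binds heparan sulfate in basement membranes, was at 32.3, 34.2 and 38.7 CPM in WT and 17.3, 19.6 and 20.5 CPM in Mmp13-/-. All 3 Mmp13-/- samples were lower, with means of 35.1 ± 3.26 and 19.1 ± 1.61 CPM (SD, n = 3 each) and a log2 fold change of −0.88 (SE 0.14, edgeR adjusted p = 0.000791). In the annotation, 350 of its exon bases (9.68%) overlap the antisense gene Gm15851, and whether counting used strand is not given in the sources used here. Osteomodulin (Omd), a proteoglycan of mineralised tissue that bone cells and odontoblasts make, was at 5.29, 3.21 and 4.22 CPM in WT and 37.2, 60.3 and 37.5 CPM in Mmp13-/-. Its means were 4.24 ± 1.04 and 45.0 ± 13.2 CPM (SD, n = 3 each), a 10.6-fold rise with a log2 fold change of 3.41 (SE 0.26, edgeR adjusted p = 3.7e-05).

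Class III holds osteoglycin (Ogn) and epiphycan (Epyc). Ogn, also called mimecan and first described in bone, was at 10.7, 11.1 and 9.96 CPM in WT and 115, 156 and 102 CPM in Mmp13-/-. The WT samples were nearly alike and the groups were far apart, with means of 10.6 ± 0.585 and 124 ± 28.1 CPM (SD, n = 3 each). Its log2 fold change was 3.55 (SE 0.19, edgeR adjusted p = 4.7e-06), the smallest adjusted p of the 9 in this fit. Epyc, a proteoglycan of growth cartilage, had 0 counts in every WT sample and 8.78, 8.73 and 10.2 estimated counts in Mmp13-/- samples 1, 2 and 6, or 0.279, 0.292 and 0.593 CPM. No fold is given, because these counts were near the background of reads. They were 2.28, 1.95 and 0.834 times the rate of reads over receptor genes for its exon length in samples 1, 2 and 6, and 40.6% of its exon bases are shared with Gm10754 on the opposite strand. Epyc was removed by the low-count filter, so it has no edgeR value here.

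**Figure D2:**
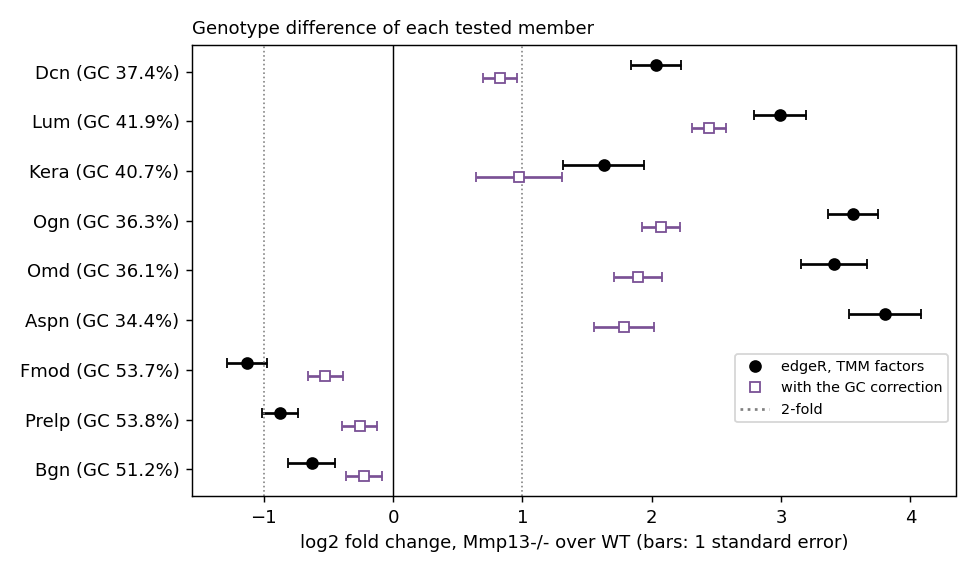
Log2 fold change of each tested SLRP, Mmp13-/- over WT, with bars of 1 standard error derived from the F statistic of the test. Black circles are the edgeR values with TMM factors, open squares those with a correction for transcript GC content, and dotted lines 2-fold. All 9 members keep their direction under the correction, and Bgn and Prelp come closest to 0, at −0.22 and −0.26.

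The direction of change also went with base composition. The 6 members that rose had transcripts of 34.4% GC (Aspn) to 41.9% (Lum), and the 3 that fell had 51.2% (Bgn) to 53.8% (Prelp), on either side of the median of 49.1% over tested genes. With a per-sample correction for transcript GC content, the log2 fold changes were smaller for all 9: 2.44 for Lum, 2.07 for Ogn, 1.89 for Omd, 1.78 for Aspn, 0.97 for Kera, 0.82 for Dcn, −0.22 for Bgn, −0.26 for Prelp and −0.52 for Fmod. Under this correction 4 members passed as higher by over 2-fold (Lum, Ogn, Omd and Aspn), where 16.4% of all genes did, and 0 passed as lower by over 2-fold, where 3.27% did. At any fold 5 passed as higher and 1 as lower in this edgeR fit, beside 23.8% and 13.1% of all genes. Dcn (edgeR adjusted p = 0.00251) and Fmod (0.0182) still passed, whereas Kera (0.0506), Prelp (0.156) and Bgn (0.229) did not. The part of base composition in the differences was not tested further.

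Levels of different SLRPs were compared as CPM per kb of exon. In WT, Bgn was the most abundant at 83.1 CPM per kb, followed by Fmod at 62.0, Lum at 20.2, Dcn at 12.9, Prelp at 9.70, Aspn at 6.78, Ogn at 4.12, Omd at 1.89 and Kera at 0.606, and no neighbours in this order overlapped over the 3 samples. In Mmp13-/-, Lum was first at 160.5 CPM per kb, followed by Aspn at 94.7, Bgn at 53.7, Dcn at 53.0, Ogn at 48.4, Fmod at 28.3, Omd at 20.0, Prelp at 5.29, Kera at 1.87 and Epyc at 0.151. There, Lum and Aspn, Bgn and Dcn, Dcn and Ogn, and Fmod and Omd had overlapping ranges over the samples. Within each of the 3 Mmp13-/- samples, Lum was above Aspn, Dcn above Ogn and Fmod above Omd, whereas Bgn and Dcn changed order between samples. The exons of Bgn sum to 6099 bases over all annotated transcripts and to 2666 in the longest, and by the latter it was second in Mmp13-/-, at 122.8 CPM per kb, with the WT order as before.

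The summed SLRP level was 918.2, 927.0 and 866.3 CPM in WT, against 1348, 1885 and 1385 CPM without Mmp13. Means were 904 ± 32.8 and 1539 ± 299.9 CPM (SD, n = 3 each), 1.7 times as high in Mmp13-/-, without overlap. Bgn, Fmod and Prelp together gave 75.8 to 79.0% of the summed CPM per kb in WT and 17.0 to 20.7% in Mmp13-/-. Over the same samples the chromosome 10 members went from 15.1 to 18.1% to 44.3 to 49.8%, and the chromosome 13 members from 5.92 to 7.12% to 31.1 to 37.8%. Split by class, the share of class III was 1.99 to 2.11% in WT and 9.72 to 11.0% in Mmp13-/-, that of class I 50.8 to 51.4% and 39.1 to 45.6%, and that of class II 46.6 to 47.2% and 44.6 to 49.9%, which overlapped. The class II share thus held members moving in opposite directions: Fmod went from 30.2 to 31.8% to 5.19 to 7.29%, and Lum from 9.44 to 10.5% to 31.5 to 38.0%. These sums and shares carry no GC correction, under which the log2 fold changes of all tested members were smaller in size.

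**Figure D3:**
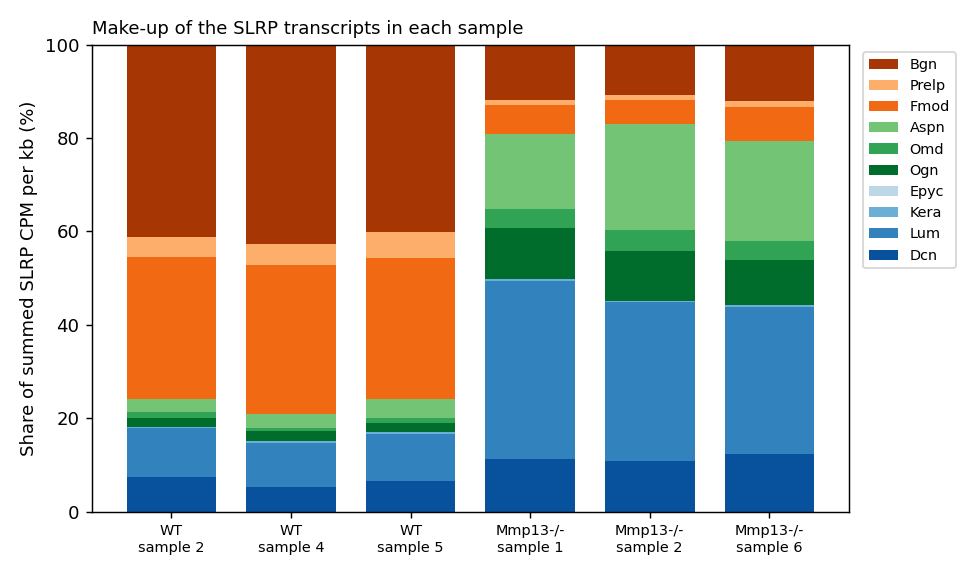
Share of each SLRP in the summed SLRP level of a sample, in percent of CPM per kb of exon, with 1 bar per sample. Orange and brown are Fmod, Prelp and Bgn, green the chromosome 13 members and blue the chromosome 10 members. Orange and brown fill 75.8 to 79.0% of each WT bar and 17.0 to 20.7% of each Mmp13-/- bar. The shares carry no GC correction.

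Ratios within a sample do not depend on how libraries are scaled. For the class I pair, the log2 ratio of Bgn to Dcn in counts per kb was 2.48, 2.98 and 2.62 in WT, whereas it was 0.07, 0.01 and −0.03 in Mmp13-/-. All 3 WT ratios were far above all 3 Mmp13-/- ratios, which lay close to 0. The level of this ratio rests on the exon length used, since by the longest transcript Bgn was at 122.8 and Dcn at 65.97 CPM per kb in Mmp13-/-, whereas its difference between genotypes does not. The means of 2.69 ± 0.26 and 0.02 ± 0.05 (SD, n = 3 each) differed by −2.67, or 6.38-fold, with p = 0.1 in a two-sided exact permutation test, the smallest p that the 20 splits of 3 against 3 allow. For the class II pair, the log2 ratio of Lum to Fmod was −1.53, −1.75 and −1.58 in WT and 2.64, 2.71 and 2.11 in Mmp13-/-. Fibromodulin was the more abundant transcript of the pair in every WT sample and lumican in every Mmp13-/- sample. The means of −1.62 ± 0.12 and 2.49 ± 0.33 (SD, n = 3 each) differed by 4.11, or 17.2-fold, with p = 0.1 in the same exact test, again its smallest value. The members of both pairs differ in GC content, and these ratios carry no correction for it. With the GC correction the log2 fold changes within the pairs were closer together, at −0.22 for Bgn and 0.82 for Dcn, and at 2.44 for Lum and −0.52 for Fmod.

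**Figure D4:**
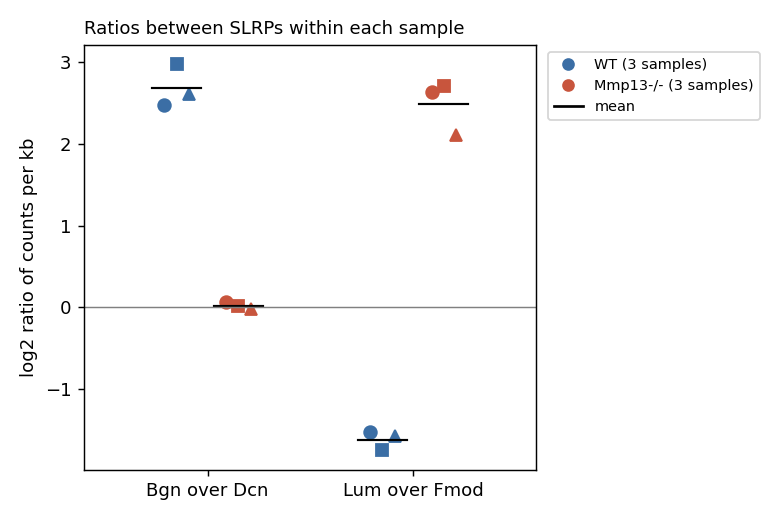
Log2 ratio of counts per kb within each sample for Bgn over Dcn and for Lum over Fmod. Blue points are the 3 WT samples, red points the 3 Mmp13-/- samples and lines the means. Bgn over Dcn goes from a mean of 2.69 in WT to 0.02 in Mmp13-/-, and Lum over Fmod from −1.62 to 2.49.

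Over 500 kb, neighbouring genes did not share one direction. The protein-coding genes within 500 kb were looked at after the values of the members had been seen. Around the chromosome 13 members, 4 of 13 tested neighbours rose and 2 fell by over 2-fold, with a median log2 fold change of 0.09. The nearest of them all rose: Cenpp, in which the members lie, by 1.48, Tes3-ps by 1.64, Ecm2 by 0.95 and Nol8 by 1.22 (log2). Those that passed as lower at any fold, Wnk2, Card19, Fgd3, Bicd2 and Iars, lie farther out. Around Fmod and Prelp, 4 of 21 tested neighbours rose and 2 fell by over 2-fold, with a median of −0.01, and around Bgn, 4 of 31 rose and 3 fell, with a median of −0.25. Of the 2 such genes near the chromosome 10 members, 0 had enough counts to be tested. Of all genes tested, 20.4% rose and 9.68% fell by over 2-fold, and the median was 0.10.

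Of 8 other SLRP family genes, all tested, 2 rose and 4 fell at any fold, whereas with the GC correction 1 rose and 0 fell in the edgeR test. Over all genes tested, 27.3% rose and 24.3% fell at any fold, or 23.8% and 13.1% with the correction. The median log2 fold change of the 8 was −0.65, against 0.10 over all genes tested. Tsku (tsukushi) fell from 44.5 ± 2.95 to 21.6 ± 1.21 CPM (SD, n = 3 each), a log2 fold change of −1.04 (SE 0.13, edgeR adjusted p = 0.000237). Podnl1 fell by 1.23 (log2, edgeR adjusted p = 0.000407), Chad (chondroadherin, a collagen-binding cartilage protein) fell by 1.31 and its relative Chadl fell by 1.15. Ecm2 rose by 0.95 (log2), and Optc (opticin) rose by 2.85 from a level near the floor of 3 counts. In Mmp13-/- samples 1, 2 and 6 Optc was at 0.476, 0.719 and 1.44 CPM, highest in sample 6, which had the most reads on receptor genes. The part of background reads in the Optc values was not tested.

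Of 22 genes that build chondroitin and dermatan sulfate chains, 14 fell and 2 rose at any fold, whereas with the GC correction 3 fell and 3 rose. Over all genes tested, 24.3% fell and 27.3% rose at any fold, or 13.1% and 23.8% with the correction. By over 2-fold, 5 of the 22 fell and 1 rose, beside 9.68% and 20.4% of all genes. The median of the list was −0.59, or −0.08 with the GC correction. Chpf, a subunit of the chondroitin polymerase, fell from 61.5 ± 6.98 to 21.4 ± 3.19 CPM (SD, n = 3 each) with a log2 fold change of −1.53 (SE 0.16, edgeR adjusted p = 0.000116), and Xylt2, which starts the chain on the core protein, fell by 1.064 (0.000292). Xylt2, with the GC correction, was at 0.01 (edgeR adjusted p = 0.954) and Chpf at −0.58 (0.0171). The 2 that rose were both epimerases that turn chondroitin into dermatan sulfate, Dsel by 1.09 (edgeR adjusted p = 0.000345) and Dse by 0.65 (0.00303). Of 5 tested genes of keratan sulfate synthesis, B4galt4 rose by 0.62 and Chst2 fell by 0.72 (log2), neither over 2-fold, and the median was −0.03. With the GC correction 2 of these 5 rose, 1 of them by over 2-fold, 0 fell in the edgeR test, and the median was 0.77.

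Of 8 collagens of the fibrils to which SLRPs bind, 6 fell by over 2-fold (Col1a1, Col1a2, Col3a1, Col5a1, Col5a2 and Col5a3), 0 rose in the edgeR test, and the median was −1.42. Col5a3 went from 156 ± 19.8 to 35.7 ± 5.55 CPM (SD, n = 3 each), a log2 fold change of −2.13 (SE 0.18, edgeR adjusted p = 4.98e-05), and Col5a1 fell by 1.66 (0.000385). Col1a1, a chain of type I collagen, the main collagen of pulp and dentin, was at 41840, 42200 and 35400 CPM in WT and 7919, 10190 and 8564 CPM in Mmp13-/-. Col12a1 and Col14a1, which sit on the fibril surface, had log2 fold changes of 0.35 and 0.00 and did not pass. Under the GC correction 3 of the 8 fell by over 2-fold and 5 at any fold, with a median of −0.83. Of all genes, 3.27% and 13.1% did so, against 9.68% lower by over 2-fold without the correction.

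Of 10 proteases known to cut SLRPs, 4 fell by over 2-fold and 0 rose in the edgeR test, with a median of −0.26. Mmp13, the deleted gene, is among the 4, and the others were Adamts4, an aggrecanase, which fell by 1.75 (log2, edgeR adjusted p = 5.68e-05), Bmp1, the procollagen C-proteinase that also trims biglycan, which fell by 1.30, and Mmp14, which fell by 1.23. After the GC correction 2 of the 10 fell by over 2-fold. At any fold 5 fell and 1 rose with the correction, against 4 and 0 without it. Over all genes, 13.1% fell and 23.8% rose at any fold with the correction, and 24.3% and 27.3% without it. Of 13 growth factors and receptors bound by SLRPs, 7 fell and 3 rose at any fold. Tgfb1 went from 134 ± 11.98 to 39.5 ± 1.98 CPM (SD, n = 3 each), a log2 fold change of −1.76 (SE 0.14, edgeR adjusted p = 4.88e-05), and Bmp6 fell by 1.10 (0.000525). With the GC correction 4 fell and 3 rose, and Bmp6 was at −0.17 (edgeR adjusted p = 0.378). The 3 that rose were the innate immune receptors Tlr4, by 1.997 (edgeR adjusted p = 7.38e-05), and Tlr2, by 1.26 (0.000548), and Wisp1, by 1.05. Of 8 hyaluronan-binding proteoglycans and link proteins, 3 rose by over 2-fold and 0 fell in the edgeR test, with a median of 1.13. Vcan (versican) went from 39.4 ± 23.3 to 139.8 ± 26.6 CPM (SD, n = 3 each), a log2 fold change of 1.83 (SE 0.37, edgeR adjusted p = 0.00247), and Hapln1 rose by 1.97 (0.00122). Ncan, at most 0.312 CPM in WT, rose by 3.13, to 0.821, 1.19 and 3.73 CPM in Mmp13-/- samples 1, 2 and 6. It was highest in sample 6, which had the most reads on receptor genes. The part of background reads in the Ncan values was not tested. Over these 7 lists together, 74 of 75 genes were tested, of which 8 passed as higher and 21, Mmp13 included, as lower by over 2-fold, beside the 20.4% and 9.68% of all genes. With the GC correction 8 of them were higher and 6 lower by over 2-fold, beside 16.4% and 3.27% of all genes.

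**Figure D5:**
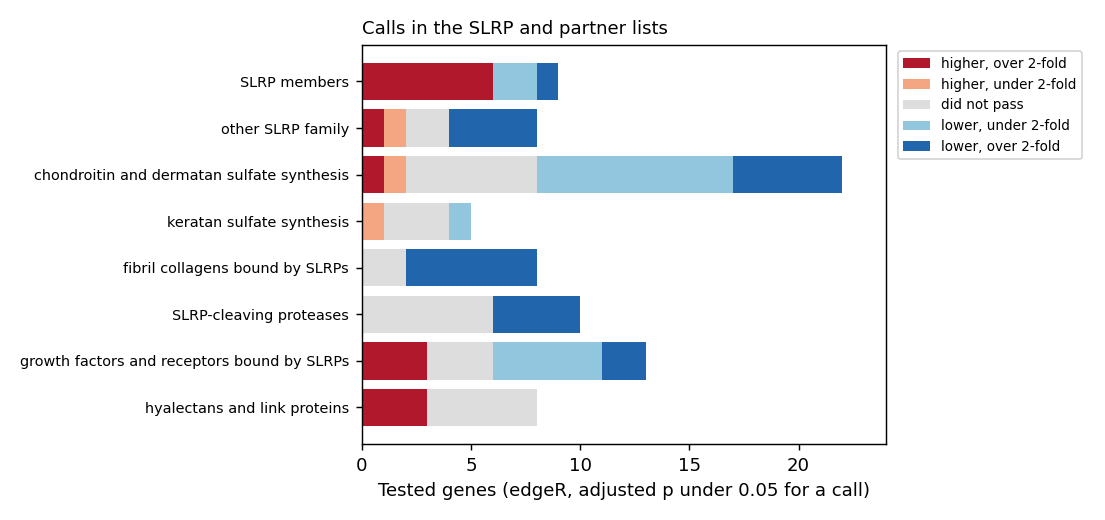
Number of tested genes that passed in each direction for the SLRPs and 7 related gene lists, by the edgeR test at an adjusted p under 0.05. Red is higher and blue lower in Mmp13-/-, dark over 2-fold and pale under it, and grey did not pass. The SLRP bar is red for 6 of 9 genes, and the collagen and protease bars hold blue and grey only, whereas with the GC correction 1 protease was higher.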

How the data were processed

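RNA from dental pulp of 3 WT and 3 Mmp13-/- mice was sequenced by the authors on an Illumina instrument. The deposited table holds, for each of 53342 genes, estimated counts that the authors made from aligned reads in Strand NGS (build mm10; DESeq is also named in the submitters' processing notes), and log2 values that the authors normalized with size factors and centred on each gene's median. Recomputing the deposited log2 values from the counts gave 100% within 0.01. The aligner's settings are not given in the sources used here.

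Rounding to whole numbers came before the test, which was run with edgeR 4.0.16 under R 4.3.3 (TMM factors, filterByExpr by genotype, quasi-likelihood test, Benjamini-Hochberg adjustment over 24534 genes). Each SE was derived from the test, as the size of the log2 fold change divided by the square root of its F statistic. Depth was 21561420 to 29980236 counts per sample, so that 3 counts were 0.0952 to 0.174 CPM. Exon lengths, positions and GC content came from GENCODE M21 on GRCm38, which matched 99.8% of gene identifiers. The GC correction used a loess fit per sample (span 0.4, genes above a mean log2 CPM of 3) as offsets. Upstream sequences came from RefSeq, with an entry for 8 of the 10 members. Alternatives were other scalings and filters, background subtraction, leaving out each sample, DESeq2 1.42.0, limma 3.58.1 on the log2 values, and an equal-variance test per gene with Storey q. The scripts were tested on simulated data with known fold changes.

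The members and the gene lists were chosen with earlier results of these data known. The rule for named genes took all 10 members, Mmp13 and, from each related list, the 2 genes past the threshold by over 2-fold with the smallest adjusted p in each direction. Other genes named from the lists (Chad, Chadl, Ecm2, Dse, B4galt4, Chst2, Col1a1, Col1a2, Col3a1, Col5a2, Col12a1, Col14a1, Bmp1, Mmp14, Wisp1 and Ncan) and the marker genes named singly were chosen after their values were seen. Ccn4 was found under its older symbol Wisp1. Nothing ties samples of different genotypes together, and p-values measure the spread between these 6 samples.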

Additional observations from a re-analysis of the deposited data

How the results depend on the processing

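Across 17 alternatives, the 9 tested members gave 153 log2 fold changes, of which 0 were reversed and 147 were past the threshold. The 6 that were not belonged to Bgn, Kera and Prelp. With the GC correction these were −0.22 for Bgn (edgeR adjusted p = 0.229), 0.97 for Kera (0.0506) and −0.26 for Prelp (0.156). With total counts and no scaling factors Bgn was at −0.51 (0.293). Leaving out 1 sample at a time moved Bgn between −0.82 and −0.58, and it was not past the threshold without Mmp13-/- sample 1 (−0.62, edgeR adjusted p = 0.0634) or without WT sample 4 (−0.63, 0.057). The count of members lower by over 2-fold, 1 as reported, was 0 with the GC correction, with background subtraction and with upper-quartile factors, and 1 to 2 when leaving out 1 sample (2 without WT sample 2, where Prelp was at −1.01). The count lower at any fold went from 3 to 1 with the GC correction. Over the related lists, 4 genes were higher by over 2-fold with limma, against 8, and 6 were lower with the GC correction, against 21. The cause of these changes was not tested.

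Upper-quartile factors moved the median of all genes by 0.21, total counts by 0.11 and the GC correction by 0.11 (log2). Higher genes made up 67.8% of all calls over 2-fold, against 81.4% with upper-quartile factors, 77.2% with total counts and 83.4% with the GC correction. Relative to the median of all genes, 6 members were higher and 3 lower under all 17 alternatives, by 1.52 to 3.70 and −0.73 to −1.24 as reported. The smallest rise was 0.61 with the GC correction, 0.48 with DESeq2 and 0.215 with no filter, and DESeq2 and no filter, which test more genes, moved the median by 1.0 and 1.2. Epyc was past the threshold only in fits without the low-count filter: DESeq2 (adjusted p = 0.00402), limma (0.00827), the equal-variance test (0.00389, Storey q) and edgeR with no filter (0.00239). At 8.73 to 10.2 counts its level is limited by depth. No paired analysis was possible because the genotypes share only replicate number 2.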
